A study of Mus musculus with 8 samples.

Results

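The 10 genes described here encode proteases that work inside lysosomes, the acidic compartments in which cells break down proteins: Lgmn, Ctsb, Ctsl, Ctsk, Ctss, Ctsh, Ctsc, Ctsz, Ctsd and Ctsa. They were chosen by name, and every probe set (a group of array probes for 1 transcript) that the array's annotation gives exactly 1 of these symbols was taken. This gave 15 of 12488 probe sets and 10 of 8251 genes with a probe set of 1 symbol. RNA had been extracted from mouse aortic endothelial cells, as the labels name them, and hybridised to 8 single-colour Affymetrix arrays. On 4 arrays the cells formed a mature confluent monolayer. On the other 4 they were subconfluent, at under 50% confluency. Samples were made from equal numbers of cells, and the labels give no strain, passage, treatment or genetic change. The samples of each group are numbered 1 to 4 as separate experiments, and nothing in the labels tells whether cultures were grown separately, so the p-values measure the spread between these arrays. The comparison asks how transcript levels differ between a full monolayer and sparse cells.

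Lysosomal proteases are made as inactive precursors in the endoplasmic reticulum, tagged with mannose 6-phosphate in the Golgi, carried to late endosomes by mannose 6-phosphate receptors, and cut to their active form in the acidic lumen. Most cathepsins are cysteine proteases of the papain family, cathepsin D is an aspartic protease, and cathepsin A is a serine carboxypeptidase. Legumain, the product of Lgmn, is a cysteine protease of another family that cuts after asparagine and helps to process several cathepsins. Cystatins inhibit the cysteine cathepsins. Many lysosomal genes carry in their promoters a site for the transcription factor TFEB that is built around the letters CACGTG, an E-box. In vessels these enzymes are known for turnover of proteins taken up by endocytosis and, when secreted, of elastin and collagen.

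Because many lysosomal genes are known to carry such promoter sites, the RefSeq promoter windows were searched for CACGTG, which reads the same on both strands. The windows (build GRCm38.p6) ran from 250 bases before to 50 after each annotated start. Windows were found for 8 of the 10 genes, 10 windows in all. The windows of Ctsb and Ctsh were not analysed here. The letters were present in windows of 4 of the 8 genes, Ctsa, Ctsd, Lgmn and Ctsl, 6 times in all, against 8.09% of all 27025 genes with a window and 13.2% of the 3819 of them that were also tested on the arrays. The 30 bases around each match, written in the direction of transcription with CACGTG in capitals, show how the flanks differ.
Ctsa, chr2:164833749-164833778, plus strand: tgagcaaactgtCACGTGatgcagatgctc
Ctsa, chr2:164833766-164833795, plus strand: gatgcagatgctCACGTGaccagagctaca
Ctsd, chr7:142387908-142387937, minus strand: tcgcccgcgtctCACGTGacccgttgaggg
Ctsd, chr7:142388048-142388077, minus strand: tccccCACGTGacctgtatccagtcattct
Lgmn, chr12:102439124-102439153, minus strand: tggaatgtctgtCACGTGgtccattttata
Ctsl, chr13:64370739-64370768, minus strand: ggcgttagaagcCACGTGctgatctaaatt

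In Ctsa the matches began 12 bases before the annotated start and at base 6 of the transcript, both in the second of its 2 windows. In Ctsd they began 98 and 245 bases before the start. The match of Lgmn began 49 bases before the start of the second of its 2 windows, and that of Ctsl 236 bases before its start. The longer form TCACGTGA, which includes this E-box and is its own reverse complement, was found in 2 of the 8 genes, Ctsa and Ctsd, against 1.12% of all genes with a window and 2.59% of those tested. This longer form with a further G before it and C after it was found in 0 of the 8 genes. The shares were 0.37% of all genes with a window and 0.89% of those tested. The windows of Ctsz, Ctsk, Ctss and Ctsc held no CACGTG. A match of letters is a description of these windows, and its part in the transcript levels was not tested.

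Of the 10 genes, 7 had a probe set whose signal averaged 200 or more on the 8 arrays and were tested (signal is the authors' linear value per probe set, with each array brought to a target of 500). Ctsc, Ctsh and Ctss lay under that level. All 7 tested genes had a lower mean in subconfluent cells. By limma over all 6007 probe sets tested, Lgmn and Ctsb fell, so that 2 of 7 genes passed in that direction at an adjusted p under 0.05, and 0 of 7 rose. Among all probe sets tested 4.06% passed as lower and 2.75% as higher. At an unadjusted p under 0.05, 5 of the 7 were lower, as were 12.8% of all probe sets tested. The median log2 difference (subconfluent minus confluent, on signal + 50) was -0.79 over the 7 genes and 0.01 over all probe sets tested, of which 48.8% were negative.

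Arrays that share an experiment number also shared deviations from their group means, and the numbers were treated as pairs. With the pairs as block 6 of the 7 genes fell and Ctsl did not pass, against 11.3% of all probe sets called lower and 9.94% called higher in that fit. The difference was negative in all 4 pairs for 7 of 7 genes, and for 22.1% of all probe sets tested. The median over the 7 genes was -1.25 in pair 1, -0.78 in pair 2, -0.66 in pair 3 and -0.70 in pair 4. Pair 1 had the most negative difference in each of the 7. Among all probe sets negative in all 4 pairs, pair 1 was the most negative in 44.9%.

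**Figure D1:**
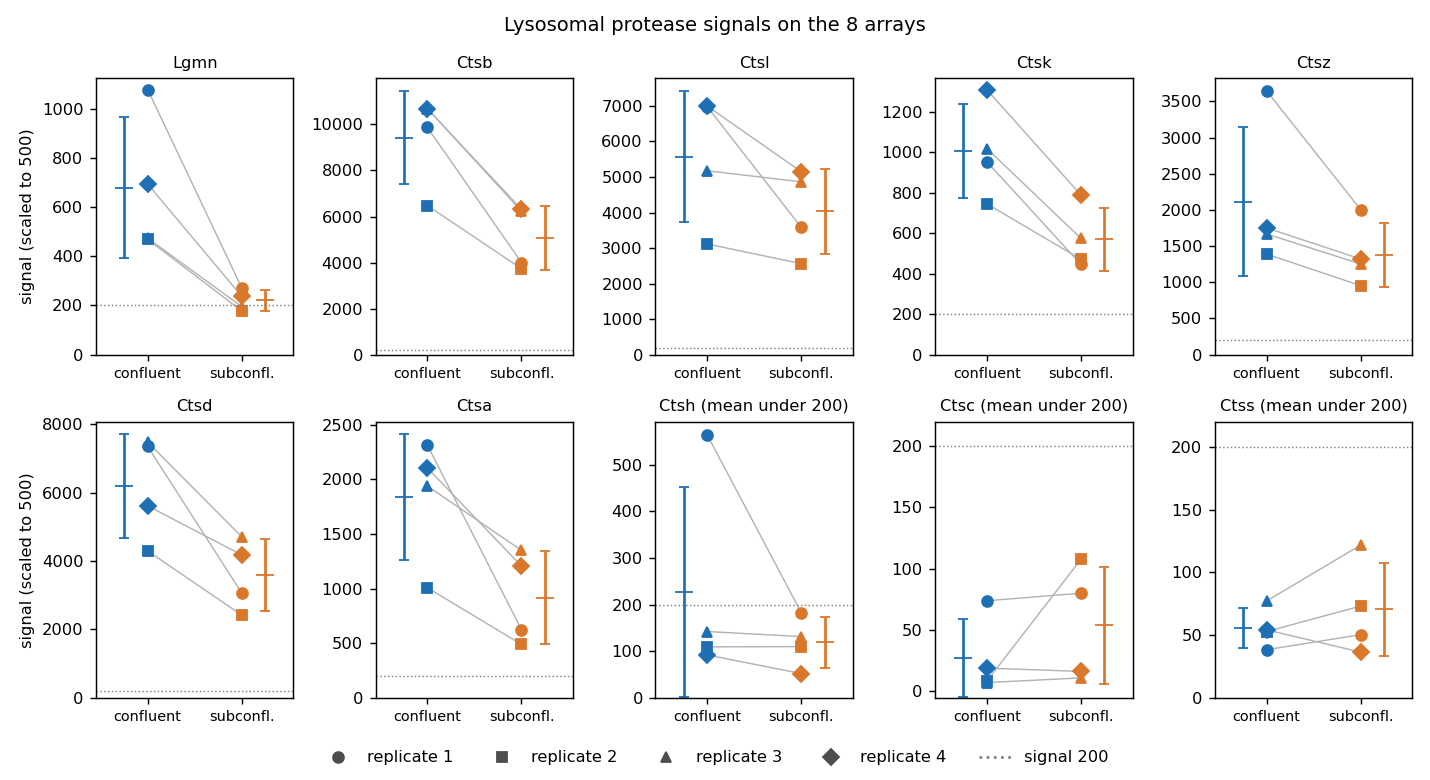
Signal of the 10 genes (vertical axes, linear, scaled by the authors to a target of 500) in confluent (blue) and subconfluent (orange) cells, 1 probe set per gene, with symbols for the replicates, grey lines joining arrays of the same number, and bars for mean ± SD of 4 arrays. The subconfluent values lie below all confluent values for Lgmn and Ctsb, the groups overlap for the other 8, and the dotted line marks a signal of 200.

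Legumain showed the largest difference of the 7 tested genes. Lgmn had signals of 1078, 469, 474 and 694 on confluent replicates 1 to 4 and of 272, 178, 195 and 237 on subconfluent replicates 1 to 4. The groups did not overlap, and the spread was wider in confluent cells, where replicate 1 was highest. The means were 679 ± 286 and 220 ± 42.3 (SD, n = 4), and Lgmn fell by 1.37 on the log2 scale (SE 0.25, limma adjusted p = 0.0160), a 2.58-fold lower level. The pair differences were -1.81, -1.19, -1.10 and -1.37. Lgmn passed in each of the 8 fits that left out 1 array, with adjusted p from 0.0112 to 0.0451. Groups without overlap and subconfluent below confluent were found for 2 of the 7 genes and for 8.54% of all probe sets tested, and the reverse for 0 of the 7 and 8.34%.

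Cathepsin B, a cysteine protease that acts both as an endopeptidase and as a dipeptidase at the end of chains, was represented by 4 probe sets. The brightest of them (94831_at) stood at 9873, 6473, 10690 and 10683 on confluent replicates 1 to 4 and at 4000, 3736, 6233 and 6314 on subconfluent replicates 1 to 4. All 4 subconfluent values lay below all confluent values, though confluent replicate 2 came close to subconfluent replicates 3 and 4. Ctsb fell from 9430 ± 2008 to 5071 ± 1393 (SD, n = 4), 1.87-fold (log2 -0.90, SE 0.23, limma adjusted p = 0.0409). This call was lost with no signal filter (adjusted p = 0.0752) and without any 1 of confluent replicates 1, 3 and 4 or subconfluent replicates 1, 2 and 4, with adjusted p up to 0.0998, and Ctsb passed with the pairs as block (adjusted p = 0.00275).

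The other Ctsb probe sets gave the same sign. Probe set 92256_at had signals of 431, 218, 306 and 280 in confluent and 106, 120, 110 and 153 in subconfluent cells, again without overlap, and fell by 1.03 on the log2 scale (SE 0.22, limma adjusted p = 0.0241). It passed the signal minimum only through the confluent arrays, so this call adds no support. Probe set 95608_at had signals of 867, 210, 475 and 696 in confluent and 194, 128, 217 and 326 in subconfluent cells. Here confluent replicate 2 lay below subconfluent replicates 3 and 4, and the difference of -1.11 (SE 0.36) did not pass (adjusted p = 0.0871; 0.0101 with the pairs as block). The last, 162271_f_at, whose name marks a sequence shared within a family, lay between 12.7 and 75.9 on the 8 arrays and was not tested. The 3 tested probe sets share the same RNA samples and are not independent samples of the gene.

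Cathepsins L, K and S are the remaining endopeptidases of the papain family, and K and S are known to degrade collagen and elastin. Ctsk had signals of 954, 746, 1019 and 1310 in confluent and 446, 471, 575 and 789 in subconfluent cells. The groups overlapped only in that subconfluent replicate 4 lay above confluent replicate 2. The means were 1007 ± 233 and 570 ± 156 (SD, n = 4), and the log2 difference of -0.77 (SE 0.21) was just short of the threshold (limma adjusted p = 0.0532; 0.00581 with the pairs as block). Its pair differences were -1.02, -0.61, -0.78 and -0.70.

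Ctsl, which encodes cathepsin L, had signals of 6982, 3115, 5174 and 6999 in confluent and 3583, 2560, 4863 and 5148 in subconfluent cells. The groups overlapped, with confluent replicate 2 below 3 of the 4 subconfluent arrays. The log2 difference of -0.44 (SE 0.29) did not pass in either fit (limma adjusted p = 0.376; 0.0698 with the pairs as block), and the pair differences ran from -0.95 in pair 1 to -0.09 in pair 3. Ctss, the cathepsin of antigen-presenting cells, lay under the signal minimum, at 38.3, 52.8, 77.1 and 54.1 in confluent and 50.3, 73.1, 122 and 36.4 in subconfluent cells. Ctsk and Ctss are neighbours on mouse chromosome 3 in RefSeq. Of this neighbouring pair Ctsk was the 1 with a tested probe set.

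The exopeptidases of the papain family are cathepsin Z, a carboxypeptidase, cathepsin H, an aminopeptidase, and cathepsin C, a dipeptidyl peptidase that activates serine proteases of immune cells. Ctsz had signals of 3644, 1389, 1667 and 1751 in confluent and 2002, 953, 1252 and 1321 in subconfluent cells. Replicate 1 was the highest array of both groups, and the groups overlapped. The log2 difference was -0.54 (SE 0.30, limma adjusted p = 0.288), and with the pairs as block Ctsz passed (adjusted p = 0.0221), with pair differences of -0.85, -0.52, -0.40 and -0.39. That blocked call was kept without pair 2 (adjusted p = 0.0403) and lost without each of the other pairs, up to 0.0691.

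Ctsh lay under the signal minimum, with 564 on confluent replicate 1 against 109, 142 and 91.9 on the other confluent arrays and 183, 110, 131 and 52.1 in subconfluent cells. The confluent mean was 227 ± 226 with that array and 114 ± 25.5 (SD, n = 3) without it, against 119 ± 54.1 in subconfluent cells (n = 4). Ctsc had 3 probe sets, none above the minimum. The brightest ran from 6.9 to 73.7 in confluent and from 10.7 to 108 in subconfluent cells, and the other 2 stayed between 4.4 and 38.5 on the 8 arrays. At these signals no difference was detectable for Ctsc, Ctsh and Ctss. Fitted with no signal filter, their differences were 0.39, -0.49 and 0.15 (limma adjusted p = 0.658, 0.668 and 0.826).

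Cathepsin D, the main aspartic protease of lysosomes, had signals of 7348, 4295, 7473 and 5612 in confluent and 3066, 2418, 4709 and 4178 in subconfluent cells. The groups overlapped only through confluent replicate 2, which lay below subconfluent replicate 3. The means of Ctsd were 6182 ± 1518 and 3593 ± 1040 (SD, n = 4). The log2 difference was -0.79 (SE 0.24), which did not pass without the block (limma adjusted p = 0.0723) and passed with it (0.00840). With chip lot as a block in place of the pairs it was -0.96 and passed (adjusted p = 0.0233).

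Cathepsin A, which also holds a lysosomal sialidase and beta-galactosidase in a stable complex, had signals of 2313, 1008, 1939 and 2104 in confluent and 624, 488, 1349 and 1206 in subconfluent cells. The overlap came again from confluent replicate 2, which lay below subconfluent replicates 3 and 4. The means of Ctsa were 1841 ± 576 and 917 ± 424 (SD, n = 4). The log2 difference was -1.02 (SE 0.34, limma adjusted p = 0.0902; 0.0104 with the pairs as block), and its pair differences varied more than those of Lgmn, from -1.81 in pair 1 to -0.51 in pair 3.

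**Figure D2:**
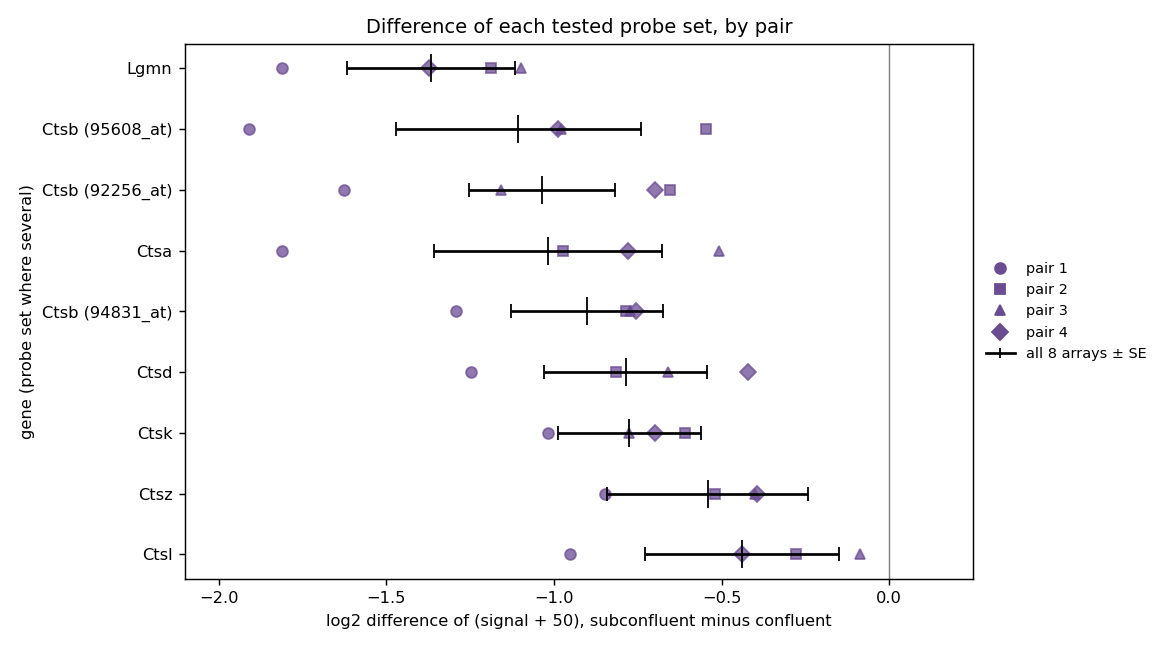
Log2 difference (horizontal axis, subconfluent minus confluent, signal + 50) of the 9 tested probe sets of the 7 genes, with a symbol for each of the 4 pairs and a black bar for the estimate over all 8 arrays ± SE. All pair values lie below 0, from -1.91 in pair 1 of Ctsb probe set 95608_at to -0.09 in pair 3 of Ctsl, and pair 1 is the leftmost for each probe set.

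Confluent replicate 2 was the lowest of the 4 confluent arrays for 7 of 7 genes, against 25.8% of all probe sets tested. Subconfluent replicate 2 was the lowest of its group for 6 of 7 (not Ctsk), against 32.0%. These arrays had the highest scale factors of their groups, 8.99 and 13.3, where the others ran from 3.05 to 8.19. With the log2 scale factor as a covariate the median difference of the 7 genes was -0.78, and Lgmn (-1.36, limma adjusted p = 0.0125), Ctsb (-0.89, 0.0337) and Ctsk (-0.76, 0.0387) fell. In that fit 4.73% of all probe sets were called lower. Without confluent replicate 2 a total of 5 genes fell, Lgmn, Ctsb, Ctsk, Ctsd and Ctsa, with limma adjusted p from 0.0112 to 0.0338. In that fit 5.74% of all probe sets were called lower. Leaving out the lowest confluent array necessarily raises the confluent means of these genes, so this count adds no support. Each of the other fits without 1 array called 1 or 2 of the genes lower.

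The likeness of 2 genes was measured as the root mean square difference of their log2 values over the 8 arrays, each centred on the gene's own mean. The genes of this group closest to each other were Ctsb and Ctsd (0.16), then Ctsb and Ctsk (0.18) and Ctsa and Ctsb (0.23). Lgmn and Ctsz lay farther from the rest, Lgmn at 0.46 (Ctsz) to 0.58 (Ctsl) and Ctsz at 0.43 (Ctsl) to 0.60 (Ctsa). Among the 4663 other genes tested, those closest to Lgmn were Dkk3 (0.14), H2-K1 (0.16) and Pnrc2 (0.18), whose log2 differences were -1.19, -1.24 and -1.09. Differences near that of Lgmn follow from this choice, since likeness was taken over the same arrays. Closest to Ctsb were Rere (0.13), Atraid (0.14) and Nucb1 (0.15). Closest to Ctsa were Grn (0.21), which encodes progranulin, a protein delivered to lysosomes, Aebp1 (0.21) and Tmem150a (0.22). These values describe 8 arrays that share their groups and pairs.

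**Figure D3:**
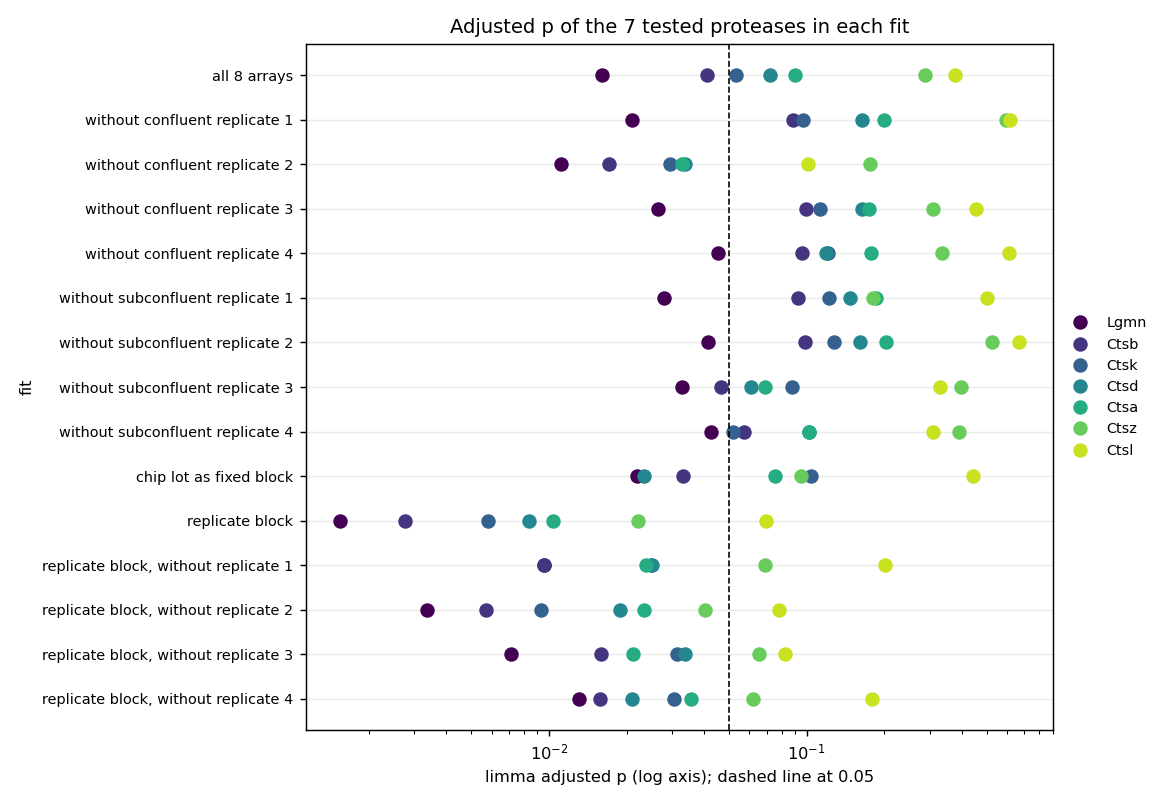
Limma adjusted p (horizontal log axis, dashed line at 0.05) of the 7 tested genes in the fit of all 8 arrays, the 8 fits without 1 array, the fit with chip lot as a block, and the fits with the pairs as block. Lgmn stays left of the line in all fits shown, Ctsl in none, and the other 5 pass mostly with the block.

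Chips came from 4 lots. In lot A were the replicates numbered 1 of both groups, in lot C confluent replicate 3 with subconfluent replicates 3 and 4, and every other lot had arrays of a single group. Within lot A (1 array against 1, no test) the differences of the 7 genes are those of pair 1, with a median of -1.25. Within lot C (1 against 2) the median was -0.59, all 7 were negative, from -0.98 for Lgmn to -0.05 for Ctsl. With lot as a fixed block the median was -0.96 and Lgmn (-1.34, adjusted p = 0.0219), Ctsd and Ctsb (-0.99, adjusted p = 0.0332) fell, against 5.24% of all probe sets called lower in that fit.

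The list of other lysosomal and cathepsin family proteases had negative differences as well. Of 18 listed genes 10 were on the array and 5 were tested. All 5 had a negative difference, with a median of -0.57, and 1 fell (3 with the pairs as block), against 4.06% of all probe sets called lower (11.3% with the block). That gene was Ctsf, a papain family cathepsin, which stood at 647 ± 286 in the confluent and 151 ± 45.6 in the subconfluent samples (SD, n = 4), a log2 difference of -1.75 (SE 0.26, limma adjusted p = 0.00629), and passed in each of the 8 fits without 1 array. It reached the signal minimum only through the confluent arrays, so its call is given as a description. Next by p came Tpp1, a tripeptidyl peptidase, at -0.73 (SE 0.24, adjusted p = 0.0842; 0.0162 with the pairs as block).

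Of 22 listed protease inhibitors 10 were on the array and 5 were tested, and 2 fell, against 4.06% of all probe sets called lower. Cst3 encodes cystatin C, the main secreted inhibitor of cysteine cathepsins. Its signal was 10157 ± 1802 in the confluent and 6163 ± 910 in the subconfluent samples (SD, n = 4), a log2 difference of -0.71 (SE 0.17, limma adjusted p = 0.0317). This call was lost in 6 of the 8 fits without 1 array (all but those without confluent replicate 2 or subconfluent replicate 3), with adjusted p up to 0.0781, and with no signal filter (adjusted p = 0.0648). Serpina3n, a secreted inhibitor of serine proteases, fell by 3.23 on the log2 scale (SE 0.27, adjusted p = 0.000534), and passed in all 8 such fits. With the pairs as block Serpinb6a, an intracellular serpin, rose (0.50, limma adjusted p = 0.0108, against 0.0749 without the block). It was named after its value was seen. In that fit 9.94% of all probe sets were called higher. When pair 3 or pair 4 was left out, the blocked fit called 0 inhibitors higher. Cstb, the cytosolic cystatin B, named here after its value was seen, differed by -0.18 (SE 0.14, adjusted p = 0.468).

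Of 20 listed sorting genes 17 were on the array and 13 were tested, with a median of -0.22. Without and with the pairs as block 2 fell, against 4.06% and 11.3% of all probe sets called lower in those fits. With the block the count is near the share of all. Igf2r encodes the large mannose 6-phosphate receptor that carries tagged proteases from the Golgi to endosomes. It stood at 819 ± 61.6 in the confluent and 501 ± 74.1 in the subconfluent samples (SD, n = 4), a log2 difference of -0.66 (SE 0.15, limma adjusted p = 0.0298). Scarb2, a lysosomal membrane protein that sorts a glucosidase without this tag, fell by 0.77 (SE 0.18, adjusted p = 0.0331). The call of Igf2r was lost without any single array but confluent replicate 2, and that of Scarb2 without confluent replicate 1 or 4 or subconfluent replicate 2, 3 or 4, with adjusted p up to 0.0843. Both calls were also lost with chip lot as a fixed block (adjusted p = 0.0594 for Igf2r and 0.0513 for Scarb2) and with no signal filter (0.0529 and 0.0533). With chip lot as a fixed block Ap1s1, named after its value was seen, rose (0.87, limma adjusted p = 0.0373). In that fit 6.13% of all probe sets were called higher. The probe set of the small receptor gene M6pr, named after its value was seen, had a mean of 14.9 and was not tested.

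Of 16 listed regulators of lysosomal genes 12 were on the array and 10 were tested, with a median of 0.02. Myc, a transcription factor of growth that can bind the same E-box letters, rose by 0.89 on the log2 scale (SE 0.21, limma adjusted p = 0.0324), from 647 ± 151 to 1245 ± 307 (SD, n = 4), and 0 fell. Of all probe sets 2.75% were called higher and 4.06% lower in that fit. The call of Myc was lost without any single array but confluent replicate 2 or 3, with adjusted p up to 0.0773, and also with chip lot as a fixed block (0.0718) and with no signal filter (0.0550). Lamtor2, part of the scaffold that holds the growth kinase mTORC1 on lysosomes, was next by p at -0.36 (adjusted p = 0.166). Tfeb and Mitf, 2 E-box factors of lysosomal genes named after their values were seen, had means of 37.5 and 80.8 and were not tested, so these arrays give no comparison of their transcripts.

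**Figure D4:**
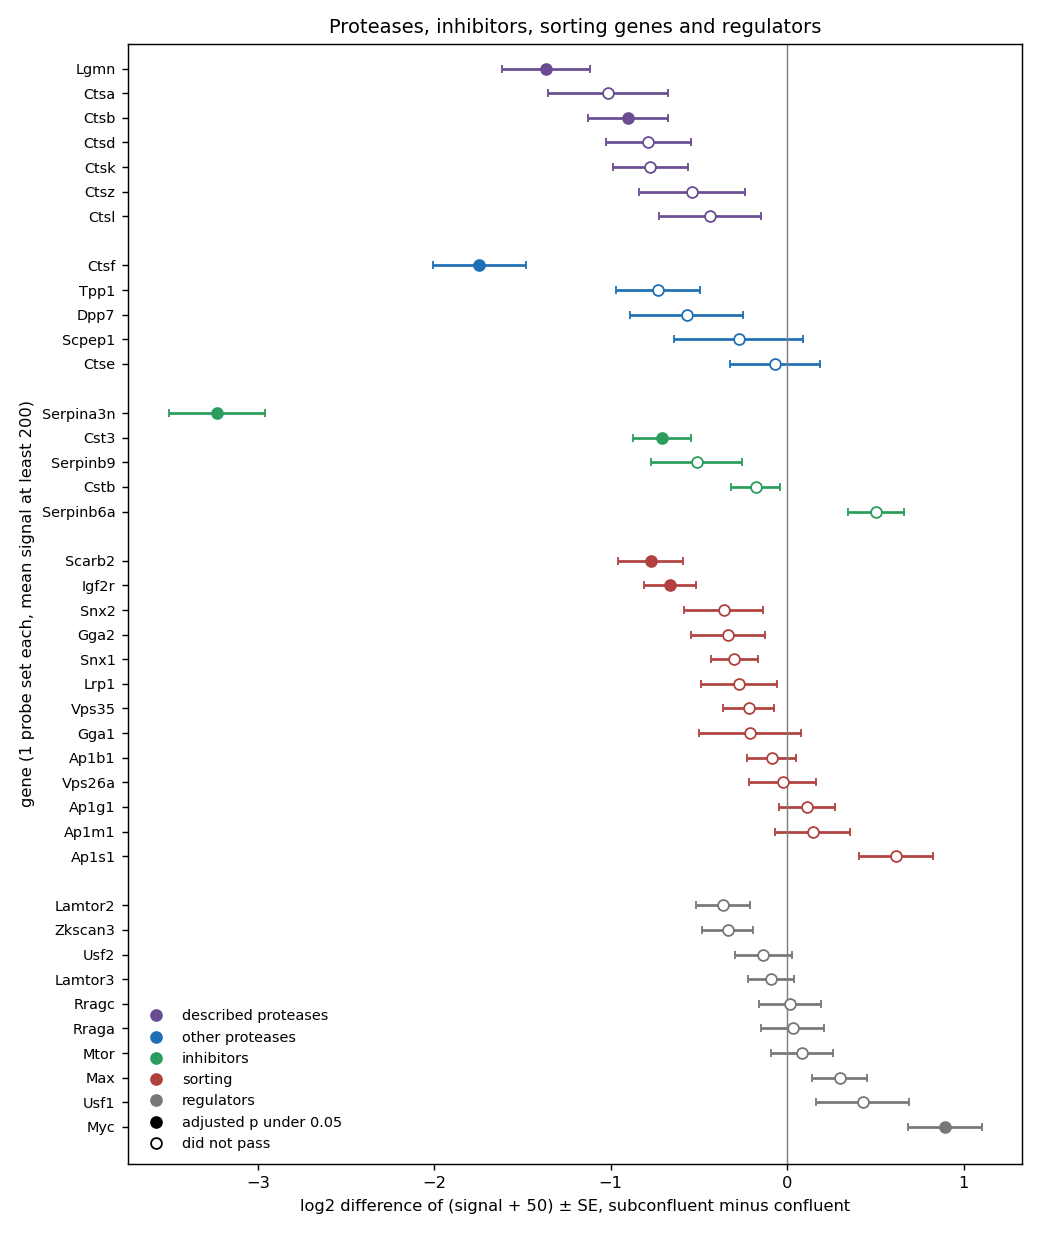
Log2 difference ± SE (horizontal axis, subconfluent minus confluent, signal + 50) of the 7 tested genes and of the tested other proteases, inhibitors, sorting genes and regulators, 1 probe set per gene, filled where the limma adjusted p was under 0.05. The proteases lie below 0, Serpina3n is the lowest at -3.23, and Myc is the filled point above 0.

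Markers of several cell types were read on the same arrays, since in bulk RNA fewer cells of a type and less RNA per cell cannot be told apart. Of 22 macrophage markers 2 reached a mean signal of 200, Cd14 and Laptm5, and 10 had a mean under 50, among them Ptprc (11.2), Tyrobp (22.1) and Adgre1 (27.9). The others lay between these levels, the highest being Cd68 (190), Csf1r (187) and C1qc (170). The summed signal of the 22 ran from 3651 to 4971 on confluent and from 2730 to 3402 on subconfluent arrays, without overlap. This linear sum is weighted towards Cd14, the brightest of them. Fitted with no signal filter, 13 of the 22 markers had a negative difference, with a median of -0.08, and 0 were called lower. Cd14 alone had 2541 ± 624 and 1521 ± 250 (SD, n = 4; log2 -0.70, limma adjusted p = 0.0563; 0.0228 with the pairs as block). Of 18 fibroblast and pericyte markers 14 reached 200 and 6 fell, against 4.06% of all probe sets called lower. Of the 6, Lum reached the minimum only through the confluent arrays (2061 ± 2719 against 153 ± 78.0, SD, n = 4). Its call is given as a description. With the pairs as block 9 fell (11.3% of all), and 3 with chip lot as a fixed block (5.24%) or no signal filter (1.09%). In the fits without 1 array between 1 and 4 fell (1.33% to 5.74% of all), fewest without subconfluent replicate 4. The sum of these markers ran from 76399 to 106427 on confluent and from 44333 to 64554 on subconfluent arrays, without overlap. Of 18 endothelial markers 4 reached 200, Cd34 with a mean signal of 1442, Eng with 832, Gata2 with 673 and Flt4 with 285. The rest were lower, 8 of the 18 under 50, with 13.0 for Cdh5 and 111 for Pecam1. The labelled cell type is thus not borne out by Cdh5 and Pecam1, which are defining markers, and the mixed list does not settle it. The endothelial sum ran from 3170 to 4983 and from 3342 to 5260 and overlapped. Of the 4 tested endothelial markers 1, Flt4, fell with the pairs as block (limma adjusted p = 0.0217, against 0.198 without the block). In that fit 11.3% of all probe sets were called lower. When 1 pair was left out of the blocked fit, an endothelial marker was called lower only without pair 2. The smooth muscle sum (2729 to 4828 against 2955 to 11271) overlapped between the groups and was higher in the subconfluent array in 4 of 4 pairs. Fitted with no signal filter, 4 of the 9 smooth muscle markers had a negative difference, with a median of 0.02. With the pairs as block 2 of the 5 tested smooth muscle markers rose, against 9.94% of all probe sets called higher in that fit. These were Acta2 and Tagln, which encode proteins of the contractile cytoskeleton (1.14 and 1.47 on the log2 scale, limma adjusted p = 0.0172 and 0.0102, against 0.228 and 0.108 without the block). Tpm2 (0.45), Actg2 (0.02) and Myl9 (-0.32) did not pass in either fit. The part of the fibroblast, pericyte, smooth muscle and other markers in the differences of the proteases was not tested. The lymphocyte sum (651 to 995 against 572 to 961) overlapped too.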

How the data were processed

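RNA of 4 confluent and 4 subconfluent samples was measured, 1 array each. The deposited table gives each probe set a linear signal. Per the labels, it came from Affymetrix's statistical algorithm with a scaling target of 500 for every array. The version of the software is not given in the sources used here. Every array had a mean of 500 after its lowest and highest 2% were left out, so no further normalization was applied. The number of arrays limits the precision.

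Controls (66 of 12488 probe sets) were left out, and the 6007 others whose signal averaged 200 or more were tested as log2(signal + 50), which shrinks folds at low signal. A gene was represented by its brightest probe set. The groups were compared with limma 3.58.1 in R 4.3.3 (lmFit, eBayes with a variance trend, 6 residual degrees of freedom), two-sided, with a threshold of 0.05 on p-values adjusted by Benjamini-Hochberg across the 6007. The script was tested on simulated data. Tables and plots used pandas 2.3.3, matplotlib 3.10.9 and numpy 2.4.6 in Python 3.11.15. Gene names are those of the array's annotation, and the gene identifiers of all 10 genes matched RefSeq.

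The pairing was checked by correlating, over the probe sets, how far the arrays lay from their group means. Same-numbered arrays gave 0.486, 0.357, 0.516 and 0.348, and those with different numbers at most 0.0681. The experiment number was therefore also used as a block. As deviations were taken from group means, high values for same-numbered arrays push the others down. The arrays numbered 1, and those numbered 3, also shared a chip lot. Other alternatives were other pseudocounts, signal filters and normalizations, chip lot, the scale factor, the choice of probe set, and each array or pair left out. The genes and lists were chosen with earlier results of these data known. Named beyond the 10 genes are, for each list, the members that passed and the 2 with the smallest p, and the 3 nearest genes of each of the 3 members with the largest difference. Others, apart from the cell type markers, are marked as named after their values were seen.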

Additional observations from a re-analysis of the deposited data

Results flagged for a closer look

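Confluent replicate 1 stood apart for 2 of the genes. For Ctsh its signal was 564.3, against 91.9 to 142 on the other confluent arrays, and the gap to the next array was 0.894 of the group's range. For Ctsz its signal was 3644.2, against 1389 to 1751 on the others, with a gap of 0.839 of the range. Both exceed Dixon's critical value for 4 arrays. The 15 probe sets gave 30 such groups, and chance marks about 1 in 20, so 2 is near what chance gives. Without confluent replicate 1 the log2 difference of Ctsz was -0.25 (limma adjusted p = 0.591) in place of -0.54 (0.288).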

How the results depend on the processing

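The number of lysosomal protease genes called lower depended on the fit. It was 2 over all arrays, 6 with the replicate block (the experiment numbers as pairs), 5 with chip lot as a random block and 1 with no signal filter, against 4.06%, 11.3%, 8.07% and 1.09% of all probe sets called lower in those fits. Within chip lot C it was 0 by limma (4 at an unadjusted p under 0.05, against 7.36% of all), but with 1 array against 2 only 0.0499% of all probe sets passed as lower, so that count says nothing of these genes. Leaving out each array in turn gave 1 to 5, highest without confluent replicate 2, against 1.33% to 5.74% of all probe sets called lower. Those shares too were highest without confluent replicate 2. Leaving out each pair with the block gave 5 to 6, against 5.88% to 10.3% of all. The other alternatives gave 2 or 3, against 3.93% to 5.32% of all. With a signal minimum of 500 the 2 were Ctsb and Ctsk, since Lgmn was no longer tested. The number called higher was 0 in every fit with a test. The median log2 difference was -1.25 within chip lot A, where no test was possible, and under the other alternatives it differed from -0.79 by less than the spread between the pairs. It ran from -0.95 to -0.70 without 1 array and from -0.91 to -0.69 without 1 pair. All 181 values of the 7 tested genes under the alternatives were negative, and the block ended no call. Signals under 200 limit what can be said of Ctsc, Ctsh and Ctss.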
